A study of Homo sapiens with 4 samples.

Results

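The SWI/SNF genes described here are 30 subunit genes of the human SWI/SNF chromatin-remodelling complexes, chosen by symbol from a list of subunits and not by their values. All 30 were found among the 62069 genes of the count tables, 28 by symbol and 2, BICRA and BICRAL, by gene identifier. RNA was sequenced from KMS11, an established myeloma cell line with the t(4;14) translocation that places NSD2, a histone H3 lysine 36 methyltransferase, under immunoglobulin control. In 2 libraries the cells had received a lentiviral shRNA against NSD2, and in 2 libraries a control shRNA. Both groups were infected with polybrene at 10 µg/mL, had their medium changed after 24 h and were harvested 72 h later, 96 h in all. The comparison asks how the subunit mRNAs stand when NSD2 is targeted, in a study whose title names SMARCA2 as a partner of NSD2. No label states that libraries of one group were grown or infected separately, and the p-values cover only library-to-library spread, part or all of which may be technical.

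SWI/SNF complexes use the ATPase SMARCA2 (BRM) or SMARCA4 (BRG1) to slide or evict nucleosomes and so open promoters and enhancers. A shared core is built into 3 assemblies, which are told apart by their own subunits: canonical BAF carries ARID1A or ARID1B with a DPF protein, PBAF carries ARID2, PBRM1, BRD7 and PHF10, and non-canonical BAF carries BRD9 with BICRA or BICRAL. Many positions are filled by one of several paralogs, and which paralog is used differs between tissues, with neural and lymphoid forms among the best known.

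The libraries held 48334736 and 55059566 fragments assigned to genes in the knockdown group, against 50417758 and 46728940 in the control group. The mitochondrial share of fragments was 5.82% and 6.82% in the knockdown libraries, against 5.89% and 5.86% in the control libraries. The 30 subunit genes together took 0.248% and 0.235% of the fragments in the knockdown libraries and 0.248% and 0.258% in the control libraries. NSD2 itself had 919 and 1156 CPM, fragments scaled to library size, in the libraries labelled NSD2 knockdown, against 1121 and 1471 CPM in the control libraries, so the groups overlapped. Its log2 fold change was -0.32 with an edgeR adjusted p of 0.244, and thus the labels were not borne out at the threshold by the targeted gene's own RNA. It passed the threshold without knockdown library 2, at -0.50 with an edgeR adjusted p of 0.0268, and without control library 1, at -0.50 with an edgeR adjusted p of 0.0196. With no filter on low counts NSD2 also passed, with an edgeR adjusted p of 0.0173. Without knockdown library 1 its log2 fold change was -0.16 with an edgeR adjusted p of 0.632, and without control library 2 it was -0.12 with an edgeR adjusted p of 0.731. Once GC content and length were fitted, it was -0.05 with an edgeR adjusted p of 0.863. Every direction below refers to the libraries as labelled. Of the 9 plasma cell markers examined, all had enough fragments to be tested, with a summed level of 8231 to 9073 CPM in the knockdown libraries and 8957 to 8986 CPM in the control libraries. Most of the sum was JCHAIN, with 5031 and 5490 CPM in the knockdown libraries, against 5575 and 5428 CPM in the control libraries. SLAMF7 and CD38 were the 2 of these markers called lower in the knockdown libraries. CD38 rested on only 14 and 2 fragments in the knockdown libraries, against 78 and 33 in the control libraries.

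Of the 30 subunit genes, 29 had enough fragments to be tested, and 1 was lower in the knockdown libraries at an adjusted p below 0.05: BCL11A. None was higher. Among all 17172 genes tested, 1.74% were called higher and 4.19% lower, or 5.93% in either direction, and 3.45% of the 29 subunit genes were called. At an unadjusted p below 0.05, 8 of the 29 subunit genes passed, 2 higher and 6 lower, a share of 27.6% against 22.5% of all genes. The authors' deposited table, made with DESeq2, likewise held 1 of the 29 below an adjusted p of 0.05. The median log2 fold change of the 29 genes was 0.00, with an interquartile range of -0.17 to 0.10, and the median over all genes was 0.00. In 25 of the 29 genes the 95% interval of the fold change lay within 1.5-fold in both directions, and the 4 exceptions were DPF1, BCL7C, BCL11A and BCL11B. The libraries of the groups did not overlap for 18 of the 29 genes, or 62.1%, against 53.2% of all genes tested.

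**Figure D1:**
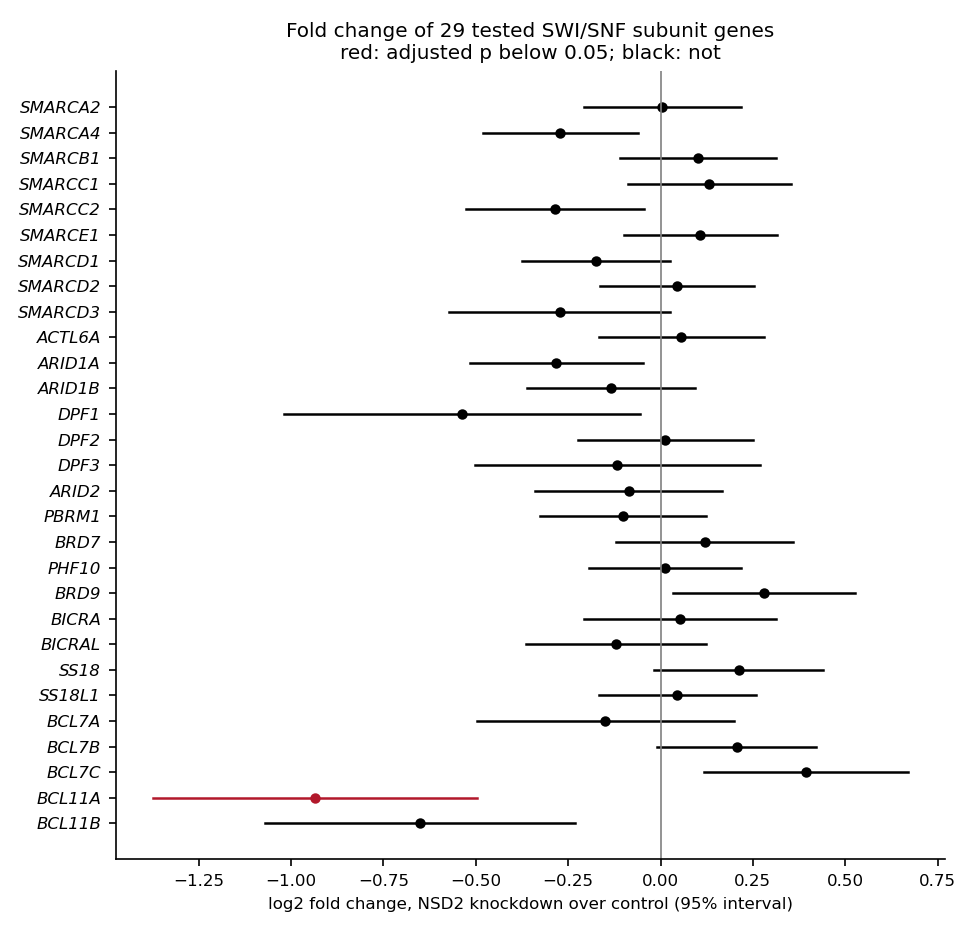
Log2 fold change of knockdown over control for the 29 tested SWI/SNF subunit genes, as points with 95% intervals from edgeR's quasi-likelihood fit, grouped by role. BCL11A, in red, lies farthest from 0 at -0.94, and it alone passed the adjusted threshold of 0.05.

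The subunit genes spanned a wide range of expression. Levels between genes are given as CPM per kb of exonic length, where that length joins all annotated exons of a gene. On this scale SMARCB1 was highest, with a mean of 69.2 CPM per kb over the 4 libraries, and DPF3 was lowest of those tested, with 0.347 CPM per kb. The median of the 29 genes was 8.19 CPM per kb, 8 genes stood above 20 CPM per kb, and 4 stood below 1 CPM per kb (BCL11A, DPF1, BCL11B and DPF3). Of the 29 genes, 22 were above the median of all genes tested. The order depends on the length used. Divided by the longest coding transcript instead, SMARCA4 was highest with 52.4 CPM per kb and SMARCB1 had 32.9 CPM per kb. For SMARCB1 that transcript, 5210 bp in GENCODE 29, is longer than the 2481 bp of exons over which its fragments were counted.

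**Figure D2:**
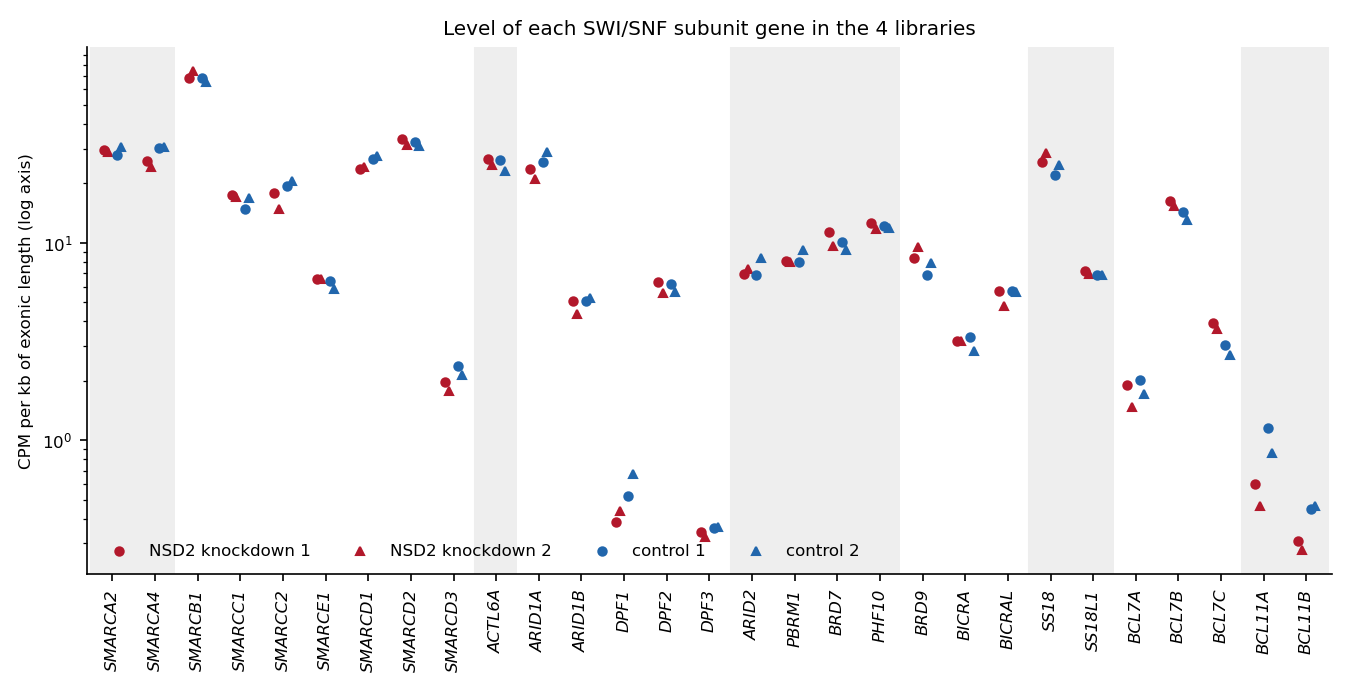
Level of each SWI/SNF subunit gene in CPM per kb of exonic length on a log axis, with 1 point per library and the knockdown libraries in their own colour. The span runs from SMARCB1, at a mean of 69.2, to DPF3, at 0.347, and the points of the 4 libraries lie close together for most genes.

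The catalytic ATPases showed unequal values. The promoters of this pair are shown because SMARCA2 is the gene in the study's title and SMARCA4 is its only alternative in the complex. They are RefSeq windows on GRCh38.p14 from 250 bases before to 50 bases after the most upstream annotated start, SMARCA2 at chr9:2015097-2015396 on the plus strand and SMARCA4 at chr19:10960780-10961079 on the plus strand. Capitals mark the GC box GGGCGG, the CCAAT box, the TATA box in the form TATAAA, or the E-box CACGTG, each read on either strand.
SMARCA2: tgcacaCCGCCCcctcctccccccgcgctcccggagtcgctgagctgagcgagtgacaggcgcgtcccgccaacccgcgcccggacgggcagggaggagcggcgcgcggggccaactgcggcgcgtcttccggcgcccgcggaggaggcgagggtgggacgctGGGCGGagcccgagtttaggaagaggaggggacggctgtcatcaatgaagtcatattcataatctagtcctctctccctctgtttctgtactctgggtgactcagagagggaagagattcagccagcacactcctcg
SMARCA4: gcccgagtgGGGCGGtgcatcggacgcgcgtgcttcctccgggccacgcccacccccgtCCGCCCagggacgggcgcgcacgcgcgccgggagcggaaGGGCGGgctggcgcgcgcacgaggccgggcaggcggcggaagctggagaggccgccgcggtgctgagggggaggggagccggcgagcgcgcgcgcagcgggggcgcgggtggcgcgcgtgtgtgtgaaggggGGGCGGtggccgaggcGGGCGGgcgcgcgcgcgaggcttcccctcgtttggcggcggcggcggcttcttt
The SMARCA2 window holds 2 copies of GGGCGG, the GC box bound by SP1-like factors, and 30 CpG dinucleotides at 66.7% GC. The SMARCA4 window holds 5 copies of GGGCGG and 55 CpG dinucleotides at 81.3% GC. GGGCGG is present in 44.5% of all 27305 promoter windows of this length and in 22 of the 26 windows of subunit genes. RefSeq lists 4 starts for SMARCA2 and 2 for SMARCA4, and counts per gene do not say which start was used.

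SMARCA2 (GRCh37, chromosome 9, 2015342 to 2193624) had 212 and 206 CPM in the knockdown libraries, against 199 and 218 CPM in the control libraries. The knockdown values lay between those of the control libraries, and the log2 fold change was 0.00 with a 95% interval from -0.21 to 0.22. SMARCA4 (GRCh37, chromosome 19, 11071598 to 11176071) had 284 and 266 CPM in the knockdown libraries, against 329.9 and 334 CPM in the control libraries. Both knockdown libraries were below both control libraries. Its log2 fold change was -0.27 with a 95% interval from -0.48 to -0.06, and it did not pass the threshold, with an edgeR adjusted p of 0.125. Within the pair, SMARCA2 took 53.4% and 54.3% of the summed CPM per kb in the knockdown libraries, against 48.1% and 49.98% in the control libraries. The share was 4.81 percentage points higher in the knockdown group and the groups did not overlap, at an exact two-sided permutation p of 0.333, which is the smallest p that 2 against 2 libraries can give. By the longest coding transcript, the share of SMARCA2 was 37.9% and 38.8% in the knockdown libraries and 33.1% and 34.8% in the control libraries. Which ATPase has the higher level thus depends on the length used, whereas the direction of the difference between the groups was the same by both.

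The core and scaffold subunits are common to several assemblies, and none of the 7 passed the threshold, against 5.93% of all genes tested. SMARCB1 (SNF5), which anchors BAF and PBAF on the nucleosome and is lost in rhabdoid tumours, had 171 and 184 CPM in the knockdown libraries, against 169.7 and 161 CPM in the control libraries. SMARCC1 (BAF155), a scaffold of all assemblies, had 133 and 131 CPM in the knockdown libraries, against 113 and 129 CPM in the control libraries. Both genes were above all control values in both knockdown libraries, at log2 fold changes of 0.10 and 0.13 with edgeR adjusted p of 0.576 and 0.476. Its paralog SMARCC2 (BAF170) had 152 and 128 CPM in the knockdown libraries, against 166 and 176 CPM in the control libraries. The SMARCC2 values did not overlap, and the log2 fold change was -0.29 with a 95% interval from -0.53 to -0.04 and an edgeR adjusted p of 0.156. Of the exonic bases of SMARCC2, 6.01% are shared with MYL6, and without strand the fragments of such stretches cannot be told apart.

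The scaffold pair had the widest difference in shares of CPM per kb among the paralog families. SMARCC1 took 49.5% and 53.5% of the pair's summed CPM per kb in the knockdown libraries, against 43.2% and 45.05% in the control libraries, a difference of 7.34 percentage points. The groups did not overlap, at the smallest exact permutation p of 0.333. By the longest coding transcript the SMARCC1 share was 36.96% and 40.8% in the knockdown libraries, against 31.3% and 32.9% in the control libraries. Leaving out 1 library at a time gave differences from 5.33 to 9.36 percentage points.

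The SMARCD proteins (BAF60) link the core to transcription factors, and the paralog SMARCD3 is best known from the heart and muscle. SMARCD1 had 122 and 124 CPM in the knockdown libraries, against 136 and 141 CPM in the control libraries. SMARCD2 had 126 and 117 CPM in the knockdown libraries, against 120.4 and 115 CPM in the control libraries. SMARCD3 had 10.3 and 9.25 CPM in the knockdown libraries, against 12.4 and 11.2 CPM in the control libraries. SMARCD1 and SMARCD3 were lower in both knockdown libraries than in either control library, and SMARCD2 overlapped. Their log2 fold changes were -0.17, 0.04 and -0.27, with edgeR adjusted p of 0.288, 0.826 and 0.261. SMARCD2 took 56.8% and 54.7% of the family's CPM per kb in the knockdown libraries, against 52.7% and 51.1% in the control libraries, and SMARCD3 took between 3.11% and 3.89% in all 4. The 5 muscle markers summed to 0.405 to 0.455 CPM in the knockdown libraries and 0.212 to 0.218 CPM in the control libraries, all of them below 1 CPM. The whole sum was ACTA1, with 22 and 22 fragments in the knockdown libraries, against 11 and 10 in the control libraries. MYOD1, MYOG, MYH7 and TNNT2 had 0 fragments in every library. SMARCE1 (BAF57), a DNA-binding core subunit, had 72.6 and 72.7 CPM in the knockdown libraries, against 70.3 and 64.5 CPM in the control libraries, at an edgeR adjusted p of 0.539.

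The actin-related position was filled by a single gene. ACTL6A (BAF53A), used in proliferating cells, had 97.98 and 91.1 CPM in the knockdown libraries, against 96.4 and 85.4 CPM in the control libraries, and the groups overlapped. ACTL6B (BAF53B), which replaces ACTL6A in neurons after mitosis, had 0 fragments in every library. A count of 0 allows up to 3 fragments, or 0.0621 and 0.0545 CPM in the knockdown libraries and 0.0595 and 0.0642 CPM in the control libraries. ACTB, the other actin of the complex and not on the list of 30, had 2789 and 3091 CPM in the knockdown libraries, against 2648 and 2519.7 CPM in the control libraries, at an edgeR adjusted p of 0.335.

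Among the 5 subunits that define canonical BAF, none passed the threshold, and ARID1A and DPF1 had an unadjusted p below 0.05. Of all genes tested, 5.93% passed the threshold and 22.5% had such an unadjusted p. ARID1A (BAF250A), a DNA-binding subunit often mutated in cancer, had 219 and 195 CPM in the knockdown libraries, against 237 and 267 CPM in the control libraries. The groups did not overlap, and the log2 fold change was -0.28 with a 95% interval from -0.52 to -0.05 and an edgeR adjusted p of 0.151. Without control library 1 it passed, at -0.36 with an edgeR adjusted p of 0.0459. ARID1B (BAF250B), which replaces ARID1A in the complex, had 74.99 and 64.8 CPM in the knockdown libraries, against 75.3 and 78.0 CPM in the control libraries. Its log2 fold change was -0.13 with an edgeR adjusted p of 0.482, and it was 0.09 when terms for GC content and length were added. Of the summed CPM per kb of ARID1A, ARID1B and ARID2, ARID1A took 66.3% and 64.2% in the knockdown libraries, against 68.3% and 67.8% in the control libraries.

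The DPF proteins read acetylated histone tails and mark canonical BAF, with DPF1 and DPF3 best known from neurons and muscle. DPF2 was the highest of the 3 DPF genes per length, with 49.0 and 43.0 CPM in the knockdown libraries, against 47.9 and 43.3 CPM in the control libraries. DPF1 had 1.84 and 2.10 CPM in the knockdown libraries, against 2.51 and 3.22 CPM in the control libraries, from 89 and 114 fragments in the knockdown libraries and 127 and 152 in the control libraries. The DPF1 values did not overlap, the log2 fold change was -0.54 with a 95% interval from -1.02 to -0.06, and the edgeR adjusted p was 0.179. DPF3 had 3.60 and 3.37 CPM in the knockdown libraries, against 3.76 and 3.80 CPM in the control libraries, at an edgeR adjusted p of 0.739. The 4 neuronal markers analysed summed to 3.06 to 3.19 CPM in the knockdown libraries and 4.39 to 4.71 CPM in the control libraries. Most of the sum was SNAP25, with 2.01 and 2.14 CPM in the knockdown libraries, against 3.26 and 2.88 CPM in the control libraries. RBFOX3 and STMN2 were below 1 CPM in all 4 libraries. The part of the neuronal markers in the DPF1 values was not tested.

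None of the 4 subunits that define PBAF passed the threshold or an unadjusted p of 0.05, against 5.93% and 22.5% of all genes tested. ARID2 (BAF200) had 84.7 and 89.9 CPM in the knockdown libraries, against 83.1 and 102 CPM in the control libraries. PBRM1 (BAF180), a polybromo protein that binds acetylated histones and is often lost in kidney cancer, had 77.8 and 77.4 CPM in the knockdown libraries, against 77.2 and 89.3 CPM in the control libraries. For both genes the knockdown values lay between those of the control libraries. The bromodomain protein BRD7 had 95.9 and 81.7 CPM in the knockdown libraries, against 85.4 and 78.1 CPM in the control libraries. Of its exonic bases 42.4% are shared with 2 other genes, of which ADCY7 had the most fragments. PHF10 (BAF45A), the PHD-finger subunit of PBAF, had 68.0 and 63.3 CPM in the knockdown libraries, against 65.95 and 64.2 CPM in the control libraries. The 4 log2 fold changes ranged from -0.10 for PBRM1 to 0.12 for BRD7, with edgeR adjusted p of 0.555 or more.

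Non-canonical BAF has no SMARCB1 or ARID subunit. Its bromodomain protein BRD9 had 80.3 and 91.7 CPM in the knockdown libraries, against 65.5 and 76.2 CPM in the control libraries. Both knockdown libraries were above both control libraries, at a log2 fold change of 0.28 with a 95% interval from 0.03 to 0.53 and an edgeR adjusted p of 0.174. BRD9 passed without control library 2, at 0.39 with an edgeR adjusted p of 0.0436. It also passed once GC content and length were fitted, at 0.44 with an edgeR adjusted p of 0.0383. Its log2 fold change was 0.17 without knockdown library 2 and 0.18 without control library 1. Of its exonic bases 4.22% are shared with 2 other genes, of which TRIP13 had the most fragments. BICRA (GLTSCR1) had 22.7 and 22.8 CPM in the knockdown libraries, against 23.7 and 20.2 CPM in the control libraries, and its values overlapped. BICRAL (GLTSCR1L) had 38.9 and 32.7 CPM in the knockdown libraries, against 38.99 and 38.8 CPM in the control libraries, at a log2 fold change of -0.12 with an edgeR adjusted p of 0.564.

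The SS18 and BCL7 families belong to BAF assemblies of both kinds. SS18, the partner in the synovial sarcoma fusion, had 149 and 165 CPM in the knockdown libraries, against 128 and 143 CPM in the control libraries, at an edgeR adjusted p of 0.258. SS18L1 (CREST), a paralog known from neurons, had 36.6 and 35.7 CPM in the knockdown libraries, against 35.1 and 34.95 CPM in the control libraries. Both were higher in both knockdown libraries than in either control library, without passing the threshold. BCL7C had 17.3 and 16.1 CPM in the knockdown libraries, against 13.4 and 11.9 CPM in the control libraries. Its groups did not overlap, and its log2 fold change of 0.39 (95% interval 0.12 to 0.67) was the highest of the 29 genes, with an edgeR adjusted p of 0.0977. BCL7C passed without control library 1, at 0.48 with an edgeR adjusted p of 0.0298, and 13.2% of its exonic bases are shared with other genes. BCL7A, first found at a translocation in a B cell lymphoma line, had 12.4 and 9.71 CPM in the knockdown libraries, against 13.3 and 11.3 CPM in the control libraries. BCL7B had 57.6 and 54.2 CPM in the knockdown libraries, against 50.5 and 46.3 CPM in the control libraries, at an edgeR adjusted p of 0.242. BCL7C took 17.8% and 17.9% of the family's CPM per kb in the knockdown libraries, against 15.8% and 15.5% in the control libraries, and BCL7A took 8.59% and 7.24% in the knockdown libraries, against 10.4% and 9.83% in the control libraries.

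The BCL11 zinc-finger proteins are transcription factors that also associate with BAF. BCL11A is required for B lymphoid development and silences fetal globin genes in red cell precursors, and BCL11B directs T cell commitment. Their promoters are shown because both genes had lower values in the knockdown libraries, BCL11A at chr2:60553875-60554174 and BCL11B at chr14:99272148-99272447, both on the minus strand of GRCh38.p14, with the same window and capitals as for the ATPases.
BCL11A: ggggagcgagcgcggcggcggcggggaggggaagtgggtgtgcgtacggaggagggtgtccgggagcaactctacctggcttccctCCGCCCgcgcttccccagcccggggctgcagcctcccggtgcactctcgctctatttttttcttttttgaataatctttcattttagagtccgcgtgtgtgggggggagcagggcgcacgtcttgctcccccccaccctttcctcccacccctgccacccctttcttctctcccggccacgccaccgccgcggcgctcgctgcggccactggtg
BCL11B: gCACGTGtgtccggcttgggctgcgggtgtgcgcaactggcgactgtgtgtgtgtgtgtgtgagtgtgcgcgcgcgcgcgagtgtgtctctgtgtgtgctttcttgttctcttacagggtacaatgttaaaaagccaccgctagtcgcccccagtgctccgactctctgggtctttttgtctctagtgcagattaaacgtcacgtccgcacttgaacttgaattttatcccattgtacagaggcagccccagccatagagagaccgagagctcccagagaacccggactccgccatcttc
The BCL11A window holds 1 copy of GGGCGG on its opposite strand, 27 CpG dinucleotides and 67.0% GC. In the BCL11B window the single match is CACGTG, an E-box found in 7.41% of all promoter windows and in 3 of the 26 windows of subunit genes, with 20 CpG dinucleotides and 55.7% GC. No motif of the 4 was shared by both windows. RefSeq lists 5 starts for BCL11A and 1 for BCL11B.

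BCL11A (GRCh37, chromosome 2, 60678302 to 60780702) had 4.94 and 3.83 CPM in the knockdown libraries, against 9.59 and 7.15 CPM in the control libraries. These values rest on 239 and 208 fragments in the knockdown libraries and on 485 and 337 in the control libraries. Both knockdown libraries were below both control libraries, and in CPM the control libraries lay farther apart than the knockdown libraries. The mean was 4.39 ± 0.785 CPM in the knockdown group and 8.37 ± 1.73 CPM in the control group (SD, n = 2 each). BCL11A fell by 47.7%, a log2 fold change of -0.94 with a standard error of 0.20, a 95% interval from -1.37 to -0.50 and an edgeR adjusted p of 0.0228. In the authors' deposited table its log2 fold change was -0.91 with a standard error of 0.24 and an adjusted p of 0.0119. BCL11A did not pass, with an edgeR adjusted p of 0.0502 and a log2 fold change of -0.83, when terms for GC content and length were added to the edgeR fit. Leaving out each library in turn gave log2 fold changes from -1.14 to -0.70, each with an adjusted p below 0.05.

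BCL11B (GRCh37, chromosome 14, 99635624 to 99737861) had 2.42 and 2.17 CPM in the knockdown libraries, against 3.54 and 3.67 CPM in the control libraries, from 117 and 118 fragments in the knockdown libraries and 179 and 173 in the control libraries. The groups did not overlap, and the log2 fold change was -0.65 with a 95% interval from -1.07 to -0.23 and an edgeR adjusted p of 0.0757. BCL11B passed when no filter on low counts was applied, with an edgeR adjusted p of 0.0332. Among the 2889 genes with a mean of 2 to 10 CPM, which holds both BCL11 genes, 63 were called higher and 214 lower, with a median log2 fold change of -0.04. Of the pair's summed CPM per kb, BCL11A took 65.97% and 62.6% in the knockdown libraries, against 72.0% and 64.9% in the control libraries, and these shares overlapped.

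Markers of T cells, in which BCL11B is best known, were low. The 4 T cell markers analysed summed to 2.65 to 2.73 CPM in the knockdown libraries and 3.82 to 4.45 CPM in the control libraries. Nearly all of the sum was CD3E, with 2.61 and 2.56 CPM in the knockdown libraries, against 4.33 and 3.65 CPM in the control libraries. CD3D, CD3G and CD2 were below 1 CPM in all 4 libraries. The part of these markers in the BCL11B values was not tested. In bulk RNA, fewer cells that express a gene and less RNA of it per cell cannot be told apart.

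**Figure D3:**
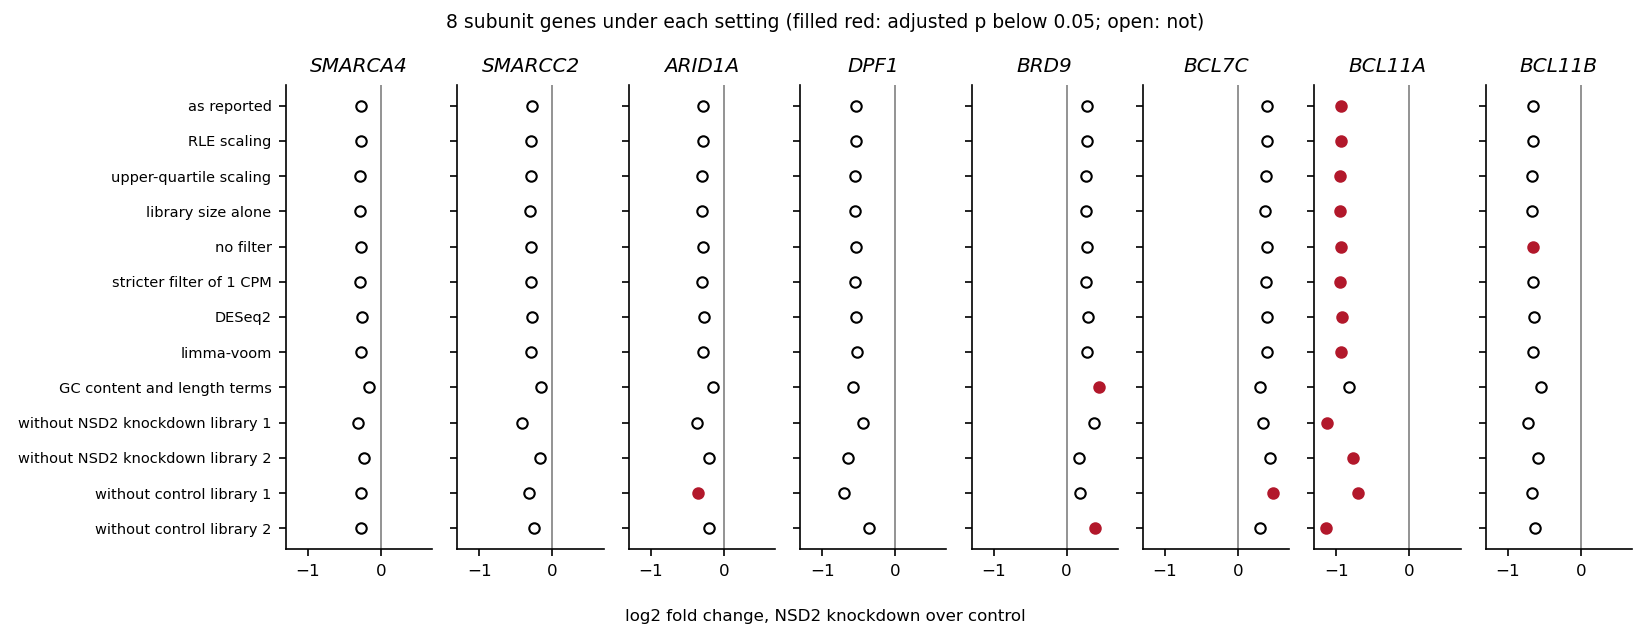
Log2 fold change of knockdown over control for 8 subunit genes (those with an unadjusted p below 0.05) under each scaling, filter, tool and left-out library, with filled red points at an adjusted p below 0.05. BCL11A passed under every setting drawn except the one with terms for GC content and length. The other genes passed under few or none of those drawn. Fits with a replicate block are not drawn. With the block alone all 8 genes passed, as did 19.3% of all genes tested.

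The genes that tell the 3 assemblies apart were also set side by side. Of the summed CPM per kb of the ARID1, ARID2 and BICRA genes, ARID1A and ARID1B took 64.5% and 62.4% in the knockdown libraries, against 65.9% and 66.8% in the control libraries. The PBAF gene ARID2 took 15.7% and 18.1% in the knockdown libraries, against 14.7% and 16.5% in the control libraries. The non-canonical genes BICRA and BICRAL together took 19.9% and 19.5% in the knockdown libraries, against 19.4% and 16.6% in the control libraries. The canonical and non-canonical shares did not overlap between groups and the PBAF share did, and the differences were -2.97, 1.28 and 1.69 percentage points for canonical BAF, PBAF and non-canonical BAF. These differences moved when single libraries were left out. The canonical difference was -1.91 percentage points without knockdown library 2. The PBAF difference was 0.039 without knockdown library 2 and 0.369 without control library 1, and it was 2.52 without knockdown library 1 and 2.19 without control library 2. The non-canonical difference was 3.05 percentage points without control library 1 and 0.329 without control library 2. Exact permutation p-values for such shares cannot go below 0.333. These are shares of mRNA and not of protein or assembled complex.

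**Figure D4:**
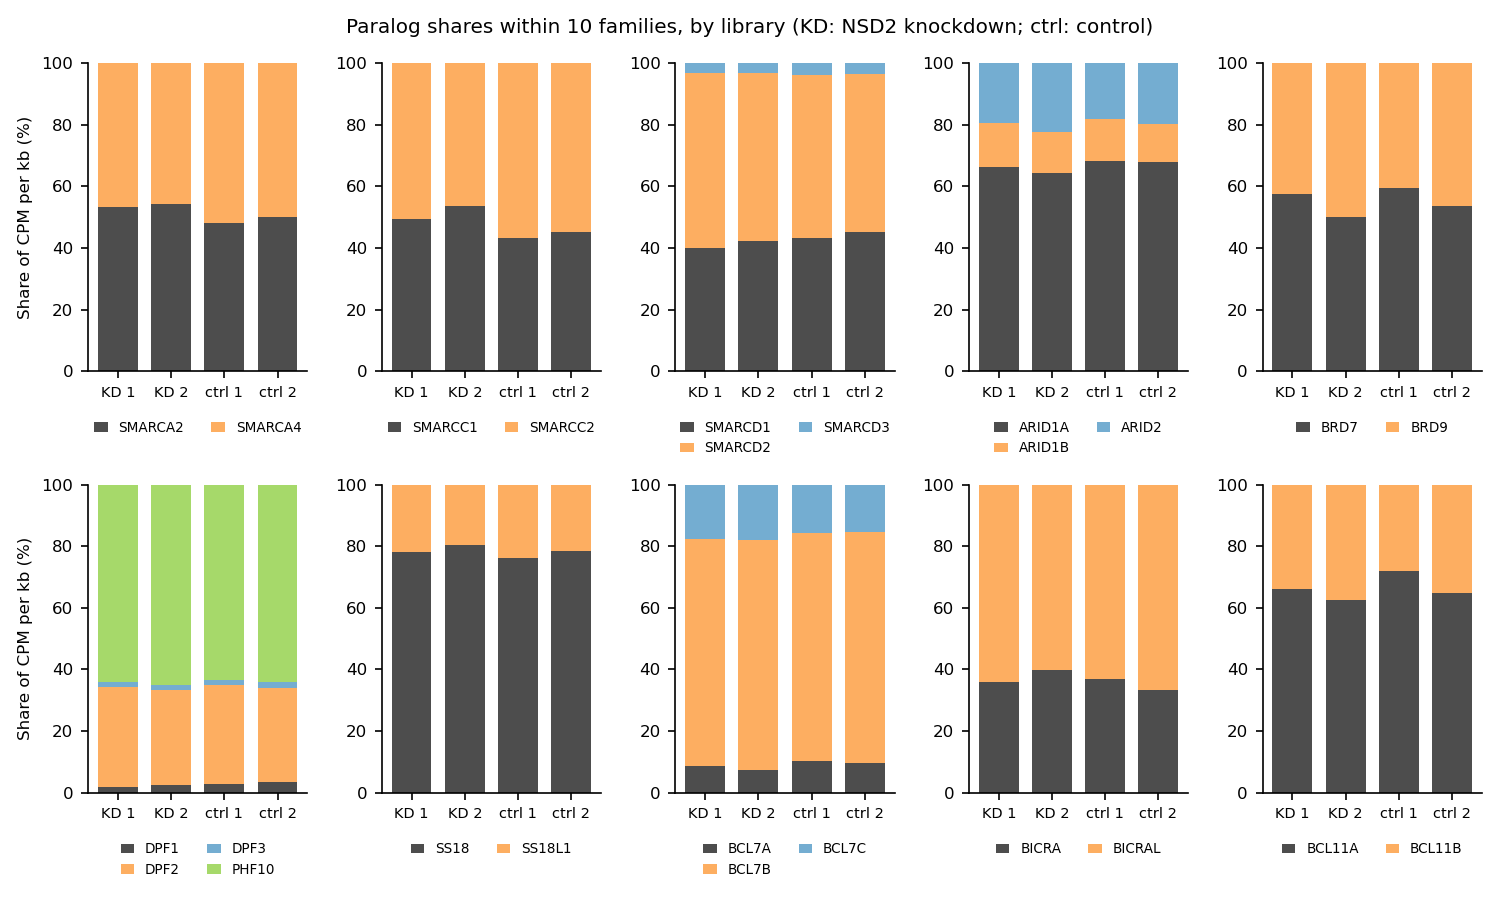
Share of each paralog in the summed CPM per kb of its family, in percent from 0 to 100, with 1 stacked bar per library and the knockdown libraries left of the control libraries. The SMARCC pair shows the widest difference, with SMARCC1 at 49.5% and 53.5% in the knockdown libraries, against 43.2% and 45.05% in the control libraries.

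By CPM per kb of exonic length, the leading paralog of each family below was the same in all 4 libraries. SS18 took 78.2% and 80.3% of its pair's CPM per kb in the knockdown libraries, against 76.3% and 78.4% in the control libraries. BICRAL took 64.1% and 60.01% of its pair in the knockdown libraries, against 63.2% and 66.7% in the control libraries. BRD7 took 57.4% and 50.1% of the BRD7 and BRD9 sum in the knockdown libraries, against 59.5% and 53.6% in the control libraries. These shares overlapped between the groups. By the longest coding transcript BRD7 took 32.4% and 26.4% in the knockdown libraries, against 34.4% and 29.2% in the control libraries, so that BRD9 led. Without division by length BRD7 took 54.4% and 47.1% in the knockdown libraries, against 56.6% and 50.6% in the control libraries. On that scale BRD9 led in knockdown library 2 only. PHF10 took 64.1% and 64.9% of the DPF and PHF10 sum in the knockdown libraries, against 63.3% and 64.2% in the control libraries, and DPF2 led by the longest coding transcript, with 50.7% and 48.96% in the knockdown libraries, against 50.3% and 47.9% in the control libraries.

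Subunit genes are long. Their median exonic length was 7147 bp, against 3924 bp over all genes tested with a known length. Across the 29 subunit genes the log2 fold change had a Pearson correlation of -0.246 and a Spearman correlation of -0.259 with the log2 of length, and of -0.056 and -0.150 with GC content. Across 16533 genes the same correlations were -0.097 and -0.144 with length and 0.047 and 0.079 with GC content. These are descriptions across genes that share the same 4 libraries. With terms for GC content and length, the log2 fold changes were -0.16 for SMARCA4, -0.16 for SMARCC2 and -0.15 for ARID1A. Each was nearer to 0 than without the terms. Other subunit genes moved away from 0, among them BRD9 from 0.28 to 0.44 and SMARCC1 from 0.13 to 0.23. Over the 18 subunit genes longer than 6000 bp, the median log2 fold change was -0.11 without the terms and 0.02 with them. The part of length in these values was not tested.

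The other families of ATP-dependent remodellers were examined in the same fit. None of the 11 ISWI genes, 20 CHD and NuRD genes, 23 INO80, SRCAP and EP400 genes or 11 other SNF2-like ATPase genes tested passed the edgeR threshold in either direction. At an unadjusted p below 0.05 in that fit there were 0, 4, 3 and 2 genes of these lists. Of all genes tested, 5.93% passed the edgeR threshold and 22.5% had an unadjusted p below 0.05. DESeq2 called 1 gene higher in the INO80, SRCAP and EP400 list and 1 lower among the other SNF2-like ATPases. The median log2 fold changes of the 4 lists were -0.01, 0.05, 0.07 and -0.08, against 0.00 for the SWI/SNF genes. Nearest to the threshold, and chosen after their values were seen, were RUVBL1 and TTF2. RUVBL1, an AAA+ ATPase of the INO80 and SRCAP complexes, had 138 and 133 CPM in the knockdown libraries, against 109 and 101 CPM in the control libraries, at a log2 fold change of 0.36 and an edgeR adjusted p of 0.0501. TTF2, a transcription termination factor of the SNF2 family, had 40.5 and 31.7 CPM in the knockdown libraries, against 50.7 and 49.1 CPM in the control libraries, at a log2 fold change of -0.47 and an edgeR adjusted p of 0.0543.

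The authors' deposited table gave the same direction as the counts for 29 of the 29 tested subunit genes, with log2 fold changes that differed by at most 0.04. Its standard errors were wider, with a median of 0.202 on the log2 scale, against 0.105 in the edgeR fit of the 4 libraries. The libraries that entered the authors' model are not given in the sources used here.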

How the data were processed

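Raw fragment counts per Ensembl gene were deposited for 4 libraries, made with a TruSeq RNA v2 kit from 1 µg of total RNA. Per the submitters' processing notes, the authors used Trim Galore 0.3.7, STAR 2.5.3, Picard and featureCounts of Subread 1.4.6 on GRCh37. Counting ignored strand and used alignments named as free of duplicates, per the file headers. A DESeq2 table deposited by the authors gives log2 fold changes, their standard errors and p-values, raw and adjusted. The same deposited table holds the Wald statistic, a score, and each gene's exonic length in bp. The 4 count columns in it were left aside, as was the single blank line of each count file.

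Groups were compared by edgeR 4.0.16 (quasi-likelihood; R 4.3.3) after TMM scaling and its default low-count filter, with no covariates. The fit and the Benjamini-Hochberg adjustment covered all 17172 genes that passed. It was tested on simulated data. The biological coefficient of variation was 9.81%. CPM are scaled by TMM library sizes, and each printed interval covers 95%. Counting error alone is covered by the limit for a count of 0. Paralog shares were computed per library from CPM per kb of the deposited exonic length and compared by exact permutation over libraries. Alternatives were other scalings, other filters, DESeq2 1.42.0, limma 3.58.1 (voom), terms for GC content and length, a replicate block, each library left out, and shares with another length or none. The longest coding transcript of GENCODE 29 as length was chosen after seeing the data. Promoters came from RefSeq on GRCh38.p14, which held 26 of the 30 genes, and all other coordinates are GRCh37.

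Members, remodeller lists and marker lists were chosen with earlier results of these data known. Every member was to be named, with genes of the remodeller lists named if past the threshold, and of the 133 symbols listed, members included, 131 matched. A further marker list is not reported here.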

Additional observations from a re-analysis of the deposited data

How the results depend on the processing

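Over 14 alternatives, no log2 fold change of a called subunit gene turned round, and of the 406 values for the 29 subunit genes 385 kept their side of the threshold, 20 newly passed and 1 no longer did. That one was BCL11A with terms for GC content and length, at -0.83 with an edgeR adjusted p of 0.0502; over the other alternatives its adjusted p ranged from 5.96e-08 to 0.0343. The sign changed under at least 1 alternative for 11 subunit genes, all within 0.15 of 0 on the log2 scale as reported and none past the threshold on either side.

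The groups share replicate numbers, but the labels do not say that a number pairs libraries. The deviations of same-numbered libraries from their group means correlated at 0.333 over 17172 genes and at 0.584 over the 29 subunit genes. With a replicate block, 2 subunit genes were higher (BCL7C, BRD9) and 6 lower (ARID1A, BCL11A, BCL11B, DPF1, SMARCA4, SMARCC2), among 1327 genes higher and 1992 lower in all, or 19.3% of genes tested, and NSD2 passed at -0.32. In the CHD and NuRD list the block called 3 higher and 1 lower, in the INO80, SRCAP and EP400 list 2 higher, and among other SNF2-like ATPases 2 lower. With the block and the GC and length terms together, 6 subunit genes were higher and 3 lower, among 2360 higher and 2310 lower in all, or 28.2%, with 2 ISWI, 7 CHD and NuRD and 3 INO80, SRCAP and EP400 genes higher and 2 other SNF2-like ATPases lower.

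With the GC and length terms alone, 1 subunit gene was higher (BRD9) and 0 lower, among 401 genes higher and 678 lower in all, or 6.53%, and NSD2 stood at -0.05, or -0.06 with the block added; 1 CHD and NuRD gene and 1 INO80, SRCAP and EP400 gene were higher. With no filter on low counts, 658 genes were higher and 1490 lower in all, 2 subunit genes were lower (BCL11A and BCL11B), NSD2 passed at -0.32, 1 INO80, SRCAP and EP400 gene was higher, and 1 CHD and NuRD gene and 2 other SNF2-like ATPases were lower. DESeq2 and voom each called 1 INO80, SRCAP and EP400 gene higher, and DESeq2 and upper-quartile scaling each called 1 other SNF2-like ATPase lower. The cause of these differences was not tested.

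Leaving out 1 library at a time leaves its group with a single library, which is assumed to vary like the other group. It gave 0 to 1 subunit genes higher and 1 to 2 lower, 173 to 682 genes higher and 649 to 1342 lower in all (the fewest without knockdown library 2, the most without control library 1, where 11.3% were called), and an NSD2 log2 fold change of -0.50 to -0.12. It also gave 0 to 2 CHD and NuRD genes higher and 0 to 1 lower, 0 to 2 INO80, SRCAP and EP400 genes higher, and 0 to 2 other SNF2-like ATPases lower.

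Of 168 share differences, 162 moved by less than the spread between libraries. With 2 libraries per group, leaving out a library cannot move a difference by more than this spread. Those values were therefore fixed in advance and say nothing on stability. The 6 that moved by more all came from shares with another length or none. Without division by length the differences were -0.245 percentage points for DPF3, -3.50 for BCL7A, 0.842 for BCL7B and 2.66 for BCL7C, and by the longest coding transcript they were -0.89 for SMARCD3 and -1.40 for BCL7A. DPF1, DPF3, BCL11A and BCL11B rest on few fragments, so their intervals are the widest, and with 2 libraries per group no share can pass a permutation test.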

Other observations

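The promoter windows of the subunit genes were rich in GC and CpG. Over the 26 subunit genes with a RefSeq window, the median GC content was 68.2% and the median number of CpG dinucleotides was 32, against 58.3% and 13 over 27305 windows. GGGCGG was present in 22 of the 26 windows, CCAAT in 10, TATAAA in 1 and CACGTG in 3, against 44.5%, 35.7%, 12% and 7.41% of all windows. These are descriptions of annotated starts, and a match is not a bound site.

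Markers of epithelial and kidney cells, 6 in all, summed to 32.9 to 34.4 CPM in the knockdown libraries and 53.9 to 66.4 CPM in the control libraries. Most of the sum was EPCAM, with 31.8 and 29.3 CPM in the knockdown libraries, against 59.2 and 45.6 CPM in the control libraries. KRT8, KRT19 and PAX2 were below 1 CPM in all 4 libraries. The 3 tested markers, EPCAM, KRT18 and CDH1, were lower at an edgeR adjusted p below 0.05, as were 4.19% of all genes tested. The part of these markers in the values of the subunit genes was not tested.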
